A study of Mus musculus with 5 samples.

Results

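Distal convoluted tubule (DCT) cells, the cells to which the authors' deposited cell table gives the label DCT, were 273 of the 23797 cells kept from 5 mouse kidneys after ischemia-reperfusion injury (IRI), in which blood flow to the kidney is stopped and then restored. The kidneys of mice 3, 4 and 5 were taken at day 10 and gave 62, 59 and 88 DCT cells, and those of mice 1 and 2 were taken at 48 h and gave 25 and 39. Each mouse is 1 library and 1 replicate, all groups had IRI, and the set holds no uninjured kidney, so each change is a late time against an early one. Apart from the kit used, the labels give tissue, mouse number, IRI and time, with no strain, sex, age, batch or length of ischemia.

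The DCT is the short stretch of nephron that follows the thick ascending limb and the macula densa. Its cells take up sodium and chloride through the thiazide-sensitive cotransporter NCC, encoded by Slc12a3, under the control of the WNK and SPAK kinases, and take up magnesium through channels that hold Trpm6. They have a high density of mitochondria, which supply the basolateral sodium pump, and the early part of the segment makes the calcium-binding protein parvalbumin (Pvalb), whereas calbindin (Calb1) marks the late part and the connecting tubule.

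DCT cells held 913749, 858228 and 1357599 unique molecular identifiers (UMIs, 1 per captured RNA molecule) in the 3 day 10 mice and 378854 and 777148 in the 48 h mice. The median cell had 13247, 12283 and 13822.5 UMIs at day 10 and 12102 and 20651 at 48 h. The median share of mitochondrial UMIs was 13.4%, 13.3% and 18.2% at day 10 and 24.3% and 27.5% at 48 h, so the groups did not overlap, and the authors' table keeps only cells under 35%. All 273 cells lay in 1 cluster of the authors' clustering. Barcodes shared between libraries numbered 57 over all pairs, of which 1 was a DCT cell in 1 of its libraries and 0 were DCT cells in both.

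Slc12a3 bore out the label, whereas Pvalb did not mark these cells. As counts per 1000000 of the label's summed UMIs (CPM), Slc12a3 stood at 3610.4, 2003 and 3916 in DCT cells of the day 10 mice and 3323 and 2565 in those of the 48 h mice. Over all mice DCT was the highest of the labels at 3170 CPM, followed by the cells labelled Injured DTECs at 2686 CPM. Immune cells, which should lack the gene, held 8.11, 3.02 and 5.43 CPM at day 10 and 9.54 and 3.89 CPM at 48 h. Some other labels held more than immune cells. In mouse 1 the descending thin limb was at 102 CPM and endothelial cells at 89.7 CPM. Cycling proximal tubule cells were at 405 CPM in mouse 3 and 411 CPM in mouse 5. DCT cells carried 24.2% of all Slc12a3 UMIs of the data set, and the injured distal cells carried 67.2%. At least 10 Slc12a3 UMIs were found in 165 of the 273 DCT cells (60.4%) and in 476 of 633 injured distal cells (75.2%), so most cells with abundant Slc12a3 carry the injured label and not the DCT label.

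Within the label, 229 cells had a Slc12a3 UMI and 44 had none. The share with a UMI was 93.5%, 78.0% and 85.2% at day 10 and 80.0% and 76.9% at 48 h, and the exact 95% binomial interval of mouse 4 ran from 65.3% to 87.7% and that of mouse 1 from 59.3% to 93.2%. The groups overlapped on this share. With each cell thinned to 5000 UMIs and shallower cells left out, the share was 98.0%, 84.2% and 87.9% at day 10 and 88.9% and 78.1% at 48 h, while immune cells thinned in the same way were at 2.36%, 0.890% and 1.98% at day 10 and 3.11% and 1.90% at 48 h. The median DCT cell held 25.3, 8.14 and 22.3 Slc12a3 UMIs per 10000 at day 10 and 16.0 and 15.8 at 48 h, so mouse 4 was the lowest library. Intervals here cover counting error only.

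Trpm6, the magnesium channel, was at 60.9 CPM in DCT cells over all mice, behind injured distal cells at 70.3 CPM. Pvalb had 16 UMIs in 3 cells in all, 1 UMI in mouse 3 and 15 in mouse 5. It was found in 0 of 59 cells of mouse 4, 0 of 25 of mouse 1 and 0 of 39 of mouse 2, which allows shares of cells with a UMI of up to 5.08%, 12.0% and 7.69%. The label is therefore borne out by Slc12a3 and, together with injured distal cells, by Trpm6, and the parvalbumin-marked early DCT was not detectable at this depth in 3 of the 5 mice.

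**Figure D1:**
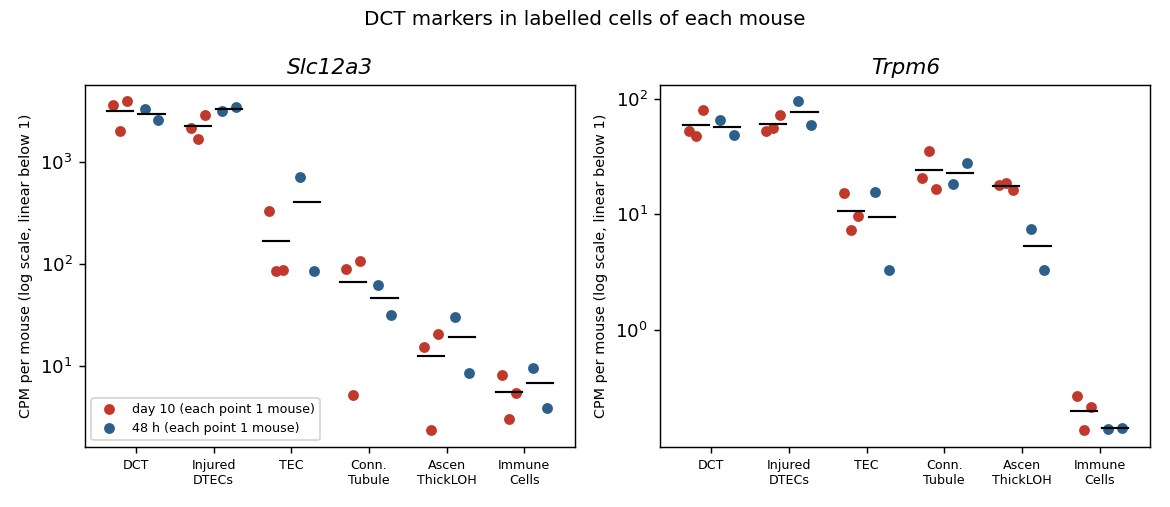
Level of Slc12a3 and Trpm6 (CPM, on an axis that is logarithmic above 1 and linear below) in each mouse for 6 of the authors' labels, day 10 left of 48 h. Slc12a3 lies between 2003 and 3916 CPM in every library of DCT cells and at 9.54 CPM or less in immune cells, and the injured distal cells reach the DCT range.

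Which genes differ between day 10 and 48 h in DCT cells was tested on UMIs summed per mouse. Fold changes are given as log2 of day 10 over 48 h with their standard error (SE). Adjusted p-values come, unless another test is named, from edgeR's quasi-likelihood F test, adjusted by the Benjamini-Hochberg method over all genes tested. Of 8182 genes, 59 passed 0.05 (0.721% of those tested), of which 32 were higher at day 10 (0.391%) and 27 lower (0.33%), and 1027 had an unadjusted p under 0.05. The median change of all genes was -0.01. DESeq2 called 139 genes and library totals without TMM scaling called 157, of which 130 were higher and 27 lower, against a median shift of all genes of 0.15. With the DCT and injured distal cells joined, 2 genes passed. Leaving out a mouse left 7 called genes without mouse 5, 13 without mouse 3, 21 without mouse 4, 48 without mouse 1 and 58 without mouse 2, and 4 genes (Fdps, Apoe, Sostdc1 and Angptl4) passed each time.

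The sodium chloride cotransporter and the magnesium channel did not pass the test. For Slc12a3 the change was -0.04 (SE 0.30, adjusted p = 0.983) with TMM scaling and 0.11 without it, and the values of mouse 4 lay below and those of mice 3 and 5 above both 48 h mice. Trpm6 was at 52.5, 47.8 and 80.3 CPM at day 10 and 66.0 and 48.9 CPM at 48 h (log2 fold change -0.01, SE 0.30, adjusted p = 0.998).

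None of the kinases and adaptors that set NCC activity passed the test. Of 25 listed genes, 22 were tested and 0 were called by edgeR or DESeq2, while 5 had an unadjusted p under 0.05, and their median change was 0.23. CPM of 8 of the 22 were higher in all day 10 mice than in both 48 h mice (36.4%), against 25.1% of all genes tested. In either direction, 32.8% of all genes had CPM that did not overlap. Wnk4, the kinase whose mutation causes familial hyperkalemic hypertension, was at 212, 329 and 315 CPM at day 10 and 97.7 and 179 CPM at 48 h (log2 fold change 0.84, SE 0.28, adjusted p = 0.211). These values did not overlap, with every day 10 mouse above both 48 h mice. Klhl3, the adaptor that marks WNK kinases for degradation, overlapped between the groups at 170, 106 and 175 CPM at day 10 and 95.02 and 124 CPM at 48 h (log2 fold change 0.28, adjusted p = 0.727). Stk39, which encodes SPAK, had a log2 fold change of 0.52 and Wnk1 of 0.26. Hsd11b2, the enzyme that keeps glucocorticoids off the mineralocorticoid receptor, was at 424, 337 and 506 CPM at day 10 and 47.5 and 194 CPM at 48 h (log2 fold change 1.55, adjusted p = 0.0905).

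Among genes that mark the DCT as a cell type, 35 of 40 listed were tested, and 1 rose (against 0.391% of all genes), 0 fell and 34 did not pass. Their median change was 0.23, and it was 0.51 without mouse 2, 0.13 without mouse 1 and 0.12 without mouse 5. The one was Abca13, an ABC transporter whose level in DCT cells was 34.95 times that in the other kept cells. It stood at 732, 412 and 818 CPM at day 10 and 97.7 and 187 CPM at 48 h (log2 fold change 2.00, SE 0.35, adjusted p = 0.0266). The lowest day 10 mouse lay above the highest 48 h mouse, and after thinning 90.0%, 65.8% and 74.2% of day 10 cells and 33.3% and 40.6% of 48 h cells had an Abca13 UMI. Lhx1, a transcription factor of the distal nephron, was at 165, 118 and 184 CPM at day 10 and 60.7 and 77.2 CPM at 48 h without passing (log2 fold change 0.99, adjusted p = 0.094). Emx1, a homeobox gene, had a change of 0.91, Tfap2b of 0.23 and Sall3 of -0.07, with adjusted p of 0.281, 0.768 and 0.97.

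None of the 10 tested genes of the sodium pump and basolateral transport was called by edgeR or DESeq2, while 2 had an unadjusted p under 0.05. The pump subunit Atp1b1 was at 5138, 4485 and 4609 CPM at day 10 and 2595 and 3569 CPM at 48 h (log2 fold change 0.46, adjusted p = 0.477). The pump regulator Fxyd2, the most abundant of these at 8800, 11878 and 8817 CPM at day 10 and 8357 and 10029 CPM at 48 h, overlapped between the groups. The potassium channel subunits Kcnj10 and Kcnj16, which set the membrane voltage that NCC responds to, had changes of 0.21 and -0.31. Egf, a growth factor made in this part of the nephron, was at 190, 40.8 and 185 CPM at day 10 and 44.9 and 68.2 CPM at 48 h, so that mouse 4 lay below both 48 h mice (log2 fold change 1.098, adjusted p = 0.411).

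**Figure D2:**
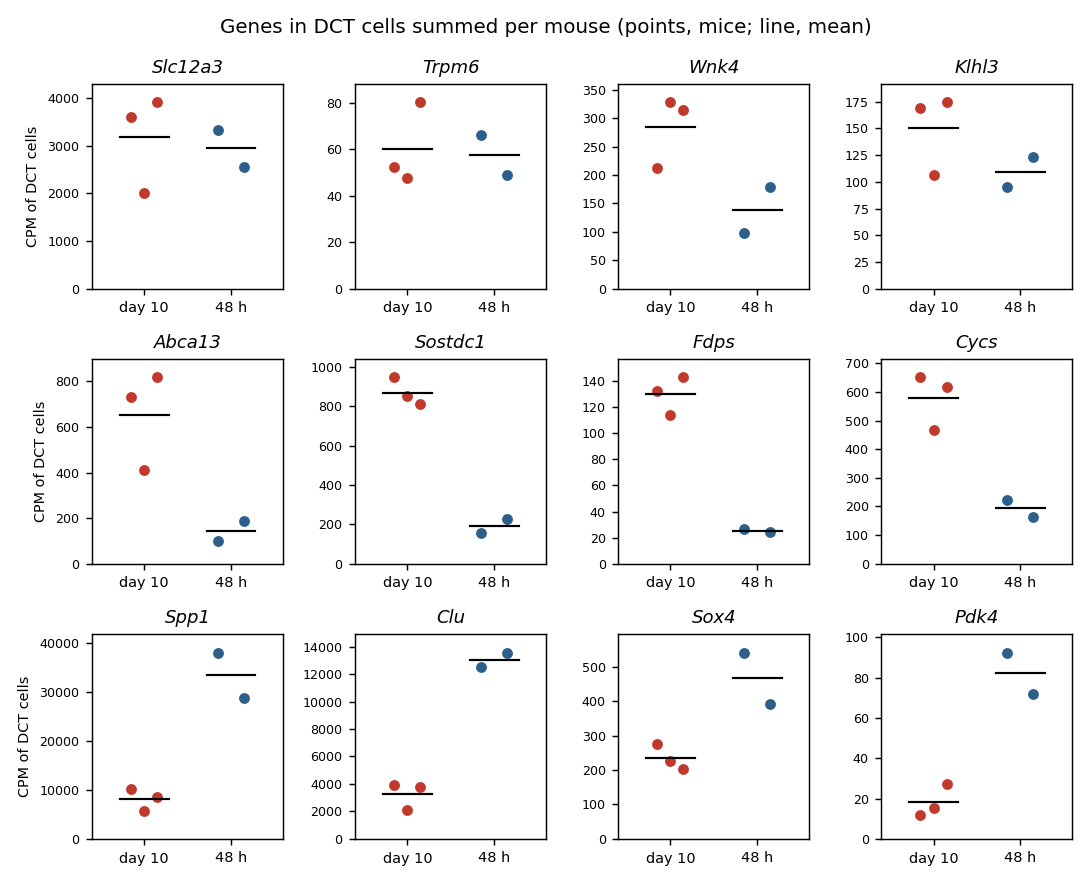
CPM of 12 genes in the summed DCT cells of each mouse, day 10 left of 48 h, with a line at each group's mean. Slc12a3, Trpm6 and Klhl3 overlap between the groups, Abca13, Sostdc1, Fdps and Cycs lie higher in all 3 day 10 mice, and Spp1, Clu, Sox4 and Pdk4 lie lower.

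Nuclear genes of oxidative phosphorylation were higher in DCT cells at day 10. Of 80 genes tested, cytochrome c and subunits of the respiratory chain and ATP synthase, 80 had a positive change and 79 had CPM that were higher in all day 10 mice than in both 48 h mice (98.8%), against 25.1% of all genes. The test called 12 higher (against 0.391% of all genes) and 0 lower, and DESeq2 called 44. Their median change was 0.83 with a range of 0.14 to 3.11, and their summed level was 68303, 62792 and 73265 CPM at day 10 and 36331 and 32180 CPM at 48 h. That list was drawn up after a shorter one of 30 such genes had been seen, of which 30 were positive and 5 were called. No test of the list as a whole was made.

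Cycs, which encodes cytochrome c, the electron carrier between complexes III and IV, was at 651, 467 and 619 CPM at day 10 and 224 and 165 CPM at 48 h (log2 fold change 1.44, SE 0.24, adjusted p = 0.0237). Uqcrc2, a core subunit of complex III, was at 356, 349.6 and 407 CPM at day 10 and 148 and 136 CPM at 48 h (log2 fold change 1.23, SE 0.21, adjusted p = 0.0256). Cox6c of complex IV was at 2799, 2704 and 3340.5 CPM at day 10 and 1246 and 1145 CPM at 48 h (log2 fold change 1.15, SE 0.23, adjusted p = 0.0467). In each of these 3 genes the lowest day 10 mouse was above both 48 h mice. The other called subunits were Cox7a1 (log2 fold change 3.11), Atp5md (1.27), Cox6b1 (1.22), Uqcr11 (1.21), Uqcrfs1 (1.14), Atp5l (1.14), Cox7b (1.14), Ndufa8 (1.07) and Atp5c1 (1.06). They fall in complexes I, III and IV and the ATP synthase.

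The 13 protein-coding genes of the mitochondrial genome itself had the opposite sign. All 13 had a negative change with a median of -0.92. Of these, 12 were lower in every day 10 mouse than in both 48 h mice (92.3%, against 7.68% of all genes). The edgeR test called 2 lower, against 0.33% of all genes, and 11 had an unadjusted p under 0.05. DESeq2 called 10 lower. Their summed level was 142147, 130042 and 181452 CPM at day 10 and 232852 and 256322 CPM at 48 h. The complex I subunit mt-Nd5 was at 848, 949.6 and 1192 CPM at day 10 and 2969 and 3243 CPM at 48 h (log2 fold change -1.79, SE 0.23, adjusted p = 0.00849). Another subunit, mt-Nd4l, was at 625, 620 and 797 CPM at day 10 and 1536 and 1759 CPM at 48 h (log2 fold change -1.43, SE 0.22, adjusted p = 0.019).

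The share of mitochondrial UMIs per cell was lower at day 10, where the nuclear subunits were higher. With the mitochondrial genes left out of the counts and totals, 80 of the 80 nuclear subunits were still positive, 9 were called and the median was 0.83. In the 156 cells under 20% mitochondrial UMIs, 78 were positive, 2 were called and the median was 0.53. These cells were 48, 42 and 47 at day 10 but only 7 and 12 at 48 h, so the 48 h side of that subset is small. With each cell thinned to 5000 UMIs, 76 of 78 tested were positive, 1 was called and the median was 0.60. Leaving out each mouse in turn gave 0 to 3 called subunits and a median of 0.74 to 0.91. With DCT and injured distal cells joined, 76 of 80 were positive, 0 were called and the median was 0.37.

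The promoters of 4 of the called genes are shown because nuclear respiratory factor 1 (NRF1) and estrogen-related receptors (ERR) are known regulators of this group of genes. Each is the 250 bases before the start of the gene from RefSeq (mouse GRCm38.p6), read 5′ to 3′ on the gene's strand, with a match to GCGCA, any base and GCGC (NRF1) or to AAGGTCA (ERR) on either strand in capitals. Atp5c1 has a pair of annotated starts. Its first promoter, at chr2:10080511-10080760, has no match, and the one shown is its other promoter, at chr2:10080433-10080682, on the minus strand, with an NRF1 match 17 bases before the start. Ndufa8 lies at chr2:36049339-36049588, on the minus strand, with an NRF1 match on the reverse strand 30 bases before the start. Atp5l lies at chr9:44920743-44920992, on the minus strand, with an ERR match on the reverse strand 13 bases before the start. Cycs lies at chr6:50566570-50566819, on the minus strand, and has neither.
Atp5c1: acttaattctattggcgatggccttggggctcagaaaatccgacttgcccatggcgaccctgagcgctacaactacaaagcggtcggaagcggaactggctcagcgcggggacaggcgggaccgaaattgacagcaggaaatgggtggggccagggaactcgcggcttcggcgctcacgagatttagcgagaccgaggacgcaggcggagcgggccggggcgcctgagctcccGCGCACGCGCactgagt
Ndufa8: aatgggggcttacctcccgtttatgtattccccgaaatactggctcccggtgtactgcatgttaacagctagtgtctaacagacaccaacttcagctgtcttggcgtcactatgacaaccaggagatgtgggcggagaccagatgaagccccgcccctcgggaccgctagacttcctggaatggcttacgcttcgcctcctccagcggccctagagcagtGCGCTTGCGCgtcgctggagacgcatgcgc
Atp5l: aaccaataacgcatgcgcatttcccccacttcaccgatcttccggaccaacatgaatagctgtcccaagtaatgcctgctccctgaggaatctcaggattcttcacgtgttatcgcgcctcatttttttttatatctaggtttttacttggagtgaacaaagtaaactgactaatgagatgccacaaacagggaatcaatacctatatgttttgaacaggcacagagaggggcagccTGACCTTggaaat
Cycs: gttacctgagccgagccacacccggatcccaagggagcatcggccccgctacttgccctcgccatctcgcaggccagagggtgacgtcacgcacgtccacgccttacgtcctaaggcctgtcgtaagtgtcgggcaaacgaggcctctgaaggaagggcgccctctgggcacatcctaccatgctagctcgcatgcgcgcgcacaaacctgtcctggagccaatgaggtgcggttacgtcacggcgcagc

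Of the 80 subunit genes, 66 had a promoter in the RefSeq table. The NRF1 letters were found in 13 of the 66 (19.7%), in 702 of 6551 tested genes with a promoter (10.7%) and in 1144 of all 27025 genes with one (4.23%). They were in 2 of 10 called and 11 of 56 other subunit genes, a like share. The ERR letters were found in 5 of the 66 (7.58%), 231 of the 6551 (3.53%) and 1271 of the 27025 (4.70%). They were in 1 of 10 called and 4 of 56 other subunit genes. Atp5c1, Ndufa8 and Atp5l are the only called subunit genes with a match to either motif. The promoters shown are therefore not typical of the called genes. No match to one motif overlaps a match to the other in the 4 promoters shown. A match describes these bases and says nothing of binding.

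Among genes of fuel choice, Pdk4 fell. Of 21 tested genes of the citric acid cycle and fatty acid oxidation, 0 rose and 1 fell (against 0.33% of all genes). In 14 CPM were higher in all day 10 mice (66.7%, against 25.1% of all genes), and the median was 0.37. Pdk4, the kinase that shuts off pyruvate dehydrogenase, was at 12.0, 15.1 and 27.3 CPM at day 10 and 92.4 and 72.1 CPM at 48 h (log2 fold change -2.22, SE 0.33, adjusted p = 0.0152). The highest day 10 mouse was below both 48 h mice. Angptl4, a secreted inhibitor of lipoprotein lipase, was at 2.19, 0 and 6.63 CPM at day 10 and 63.3 and 39.9 CPM at 48 h (log2 fold change -3.93, SE 0.57, adjusted p = 0.0117). It was named through its difference from injured distal cells and stayed called without each mouse in turn.

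In cholesterol synthesis, Fdps and Msmo1 rose. Of 18 genes tested, on a list drawn up after values were seen, 2 rose (against 0.391% of all genes) and 0 fell, and 13 were higher in all day 10 mice (72.2%, against 25.1% of all genes). The median was 1.01, and it was 0.51 without mouse 2 and 0.62 without mouse 5. Fdps, which makes farnesyl diphosphate, was at 132, 114.2 and 143 CPM at day 10 and 26.4 and 24.4 CPM at 48 h (log2 fold change 2.21, SE 0.26, adjusted p = 0.00686). Msmo1, a sterol demethylating oxidase, was at 41.6, 46.6 and 41.2 CPM at day 10 and 15.8 and 6.43 CPM at 48 h (log2 fold change 1.97, adjusted p = 0.0426). Both had day 10 values that lay above all 48 h values. Hmgcs1, at the head of the pathway, had a change of 0.88 (adjusted p = 0.0702).

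Among injury genes, Spp1, Clu and Sox4 fell. Of 36 listed, 20 passed the filter on low counts, and 3 fell (against 0.33% of all genes), 0 rose and 17 did not pass, with 10 lower in all day 10 mice (50.0%, against 7.68% of all genes) and a median of -0.65. The number that fell was 0 without mouse 3, 1 without mouse 5 and 4 without mouse 2. Spp1, which encodes osteopontin, was at 10222, 5765 and 8509 CPM at day 10 and 37991 and 28705 CPM at 48 h (log2 fold change -2.19, SE 0.30, adjusted p = 0.0111). The median single cell held 79.3, 54.7 and 74.7 Spp1 UMIs per 10000 at day 10 and 382 and 245 at 48 h. Every DCT cell had an Spp1 UMI, but so did 99.5%, 98.2% and 98.6% of immune cells at day 10 and 100% and 99.9% at 48 h. Detection of Spp1 thus does not set DCT cells apart. In immune cells Spp1 was at 1499, 4342 and 1646 CPM at day 10 and 5749 and 4044 CPM at 48 h.

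Clu, the secreted chaperone clusterin, was at 3946, 2126 and 3745 CPM at day 10 and 12514 and 13562 CPM at 48 h (log2 fold change -2.15, SE 0.29, adjusted p = 0.0111). Sox4, a transcription factor of the developing nephron, was at 276, 227 and 202 CPM at day 10 and 541 and 392.5 CPM at 48 h (log2 fold change -1.14, SE 0.21, adjusted p = 0.0314). Spp1, Clu and Sox4 were all lower in every day 10 mouse. Krt8, a keratin, was at 255, 359 and 395 CPM at day 10 and 699 and 531 CPM at 48 h and missed the threshold (log2 fold change -1.01, adjusted p = 0.0649), and Krt18 had a change of -0.78 (adjusted p = 0.168). Sox9, a factor of tubule repair, and Lcn2, which encodes NGAL, had changes of 0.30 and -0.25 with adjusted p of 0.849 and 0.869. Havcr1, which encodes KIM-1, was at 2.19, 1.17 and 5.89 CPM at day 10 and 18.5 and 1.29 CPM at 48 h, and neither it nor Cd44 passed the filter. Joined with the injured distal cells, the list had a median of -0.07 and 0 calls.

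Another 7 genes among the largest rises belong to none of these groups. Sostdc1, a secreted antagonist of BMP signalling, was at 948, 852 and 813 CPM at day 10 and 158 and 225 CPM at 48 h (log2 fold change 2.00, SE 0.23, adjusted p = 0.00686). Its median per cell was 4.65, 6.37 and 6.02 UMIs per 10000 at day 10 and 0.661 and 1.05 at 48 h, so the median cell showed the rise too. Pcolce, an enhancer of procollagen cleavage, was at 235, 185 and 249.7 CPM at day 10 and 71.3 and 46.3 CPM at 48 h (log2 fold change 1.83, adjusted p = 0.0117). Vegfb, of the VEGF family, had a change of 1.58 and Ccnd2, the cell cycle protein cyclin D2, one of 2.20, although cyclin D2 rested on 2.64 and 14.2 CPM at 48 h. Atp4a, the catalytic subunit of a proton and potassium pump, was at 167, 143 and 158 CPM at day 10 and 15.8 and 60.5 CPM at 48 h (log2 fold change 1.69, adjusted p = 0.0426). Glod5 had a change of 2.06, and Sdf2l1, a protein of the endoplasmic reticulum, one of 2.90 (adjusted p = 0.0467).

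Another 7 genes outside the injury list were among the largest falls. Rhob, a small GTPase, had a change of -2.19, with 30.6, 40.8 and 11.8 CPM at day 10 and 116 and 102 CPM at 48 h. Btg2, an antiproliferative target of p53, fell by 1.36 on the log2 scale and Net1, a guanine nucleotide exchange factor, by 1.34. Prnp, the prion protein gene, changed by -1.47, the NF-Y subunit Nfyb by -1.43, Arrdc3 by -1.30, and Sytl2, which tethers Rab27 vesicles, by -1.19. Sytl2 was at 194, 174 and 137 CPM at day 10 and 341 and 341 CPM at 48 h. All 7 were lower in every day 10 mouse.

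Calb1 passed the test but rested on few cells. Its summed level was 1539.8, 1789.7 and 1391 CPM at day 10 and 267 and 593 CPM at 48 h (log2 fold change 1.68, SE 0.31, adjusted p = 0.0314). The median DCT cell had 0 Calb1 UMIs per 10000 in all 3 day 10 mice and 0.685 and 5.54 at 48 h. Cells with no Calb1 UMI were 49 of 62, 35 of 59 and 52 of 88 at day 10 and 11 of 25 and 10 of 39 at 48 h. The sum and the median thus went in opposite directions.

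Cells with at least 20 Calb1 UMIs per 10000 were 5 of 62, 4 of 59 and 14 of 88 at day 10 and 2 of 25 and 4 of 39 at 48 h. They held 91.4%, 91.3% and 94.9% of the label's Calb1 UMIs at day 10 and 35.6% and 13.7% at 48 h. A Slc12a3 UMI was present in 5, 2 and 8 of them at day 10 and in 2 and 2 at 48 h. The single highest cell held 40.4%, 77.5% and 34.6% of Calb1 UMIs at day 10 and 28.7% and 11.3% at 48 h, and without it the mean level was 776 CPM at day 10 and 379 CPM at 48 h. With each cell thinned to 5000 UMIs the change was 0.78 with an adjusted p of 0.231. The other genes of late DCT and calcium transport did not pass, among them the exchanger Slc8a1 at 0.72 (adjusted p = 0.451) and the channel Trpv5 at -0.69 (adjusted p = 0.64), and the list had 1 higher call of 13 tested (against 0.391% of all genes) and a median of 0.31, which was -0.14 without mouse 1.

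**Figure D3:**
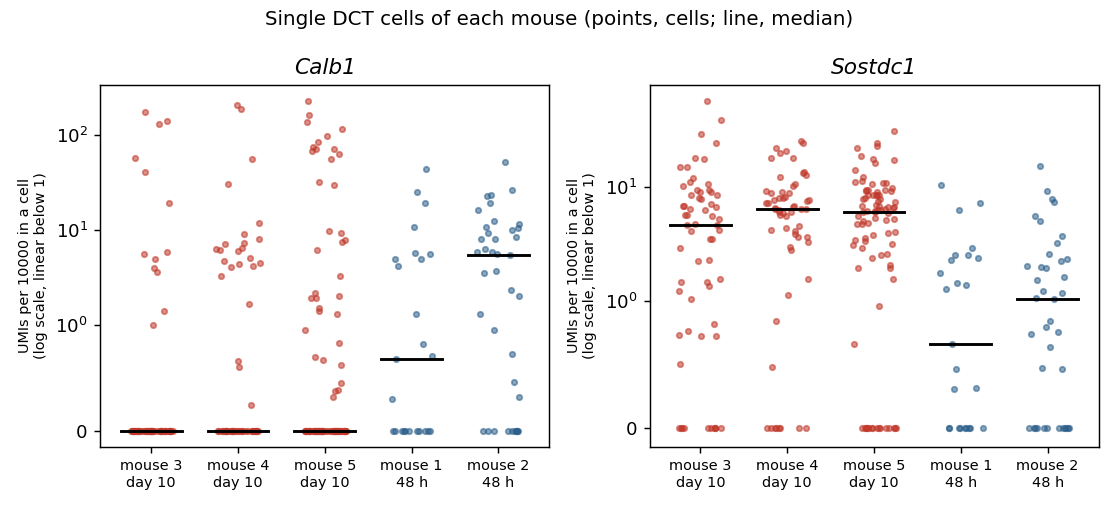
Calb1 and Sostdc1 UMIs per 10000 UMIs in each single DCT cell by mouse, the day 10 mice 3, 4 and 5 left of the 48 h mice 1 and 2, with a line at each mouse's median. Calb1 has a median of 0 in each day 10 mouse with single cells up to 226, whereas the Sostdc1 medians are 4.65 to 6.37 at day 10 and 0.661 and 1.05 at 48 h.

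RNA of other cell types moved with time within the label. Macrophage markers summed to 451, 1985 and 746 CPM at day 10 and 37.0 and 47.6 CPM at 48 h. All 8 tested markers were higher in all day 10 mice, 2 were called (against 0.391% of all genes) and the median was 4.18. Markers this low at 48 h pass the filter on low counts mainly through the day 10 mice. The direction of the tested ones was thus largely set by the filter, and these counts lend no support beyond the levels. A single cell held 73.3% of the Apoe UMIs of mouse 4. Apoe, a lipid carrier abundant in macrophages, was at 259, 1272 and 451 CPM in DCT cells at day 10 and 7.92 and 3.86 CPM at 48 h (log2 fold change 6.77, SE 0.85, adjusted p = 0.00737), against 35874, 41828 and 35082 CPM in immune cells at day 10 and 2518 and 1756 CPM at 48 h. Its level in DCT cells was 0.0464 times that in all other cells, and it was also present in the Connecting Tubule label at 170, 379 and 275 CPM at day 10 and 4.55 and 17.8 CPM at 48 h. Lyz2, another macrophage gene, had a change of 3.65 (adjusted p = 0.0297). With the 4 cells that had at least 1% of macrophage, neutrophil or hemoglobin UMIs left out, 90 genes were called. Of the oxidative phosphorylation subunits 80 of 80 were then positive and 19 were called, with a median of 0.84, and of the injury genes 4 fell, with a median of -0.67.

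Markers of other cell types were present too. Proximal tubule markers summed to 826, 237 and 527 CPM at day 10 and 414 and 448 CPM at 48 h, and 0 of 7 tested were called by edgeR or DESeq2, with 0 at an unadjusted p under 0.05. Lymphocyte markers summed to 3.28, 1.17 and 1.47 CPM at day 10 and 0 and 0 CPM at 48 h, with Cd3e, Nkg7, Cd79a and Ms4a1 at 0 throughout. Neutrophil markers summed to 15.3, 8.16 and 37.6 CPM at day 10 and 29.0 and 95.2 CPM at 48 h, and S100a9 was called (log2 fold change -3.40). Intercalated cell markers summed to 12.0, 23.3 and 51.6 CPM at day 10 and 7.92 and 14.2 CPM at 48 h, with Slc26a4 and Insrr at 0. Hbb-bs of red cells was called with a change of -8.93, and 99.8% of its UMIs in mouse 2 came from 1 cell. Slc12a1, the cotransporter of the thick ascending limb, was at 18.6, 2.33 and 2.95 CPM at day 10 and 15.8 and 126 CPM at 48 h (log2 fold change -3.56, adjusted p = 0.0426), and 62.2% of the mouse 2 value came from 1 cell. Umod, also of the thick ascending limb, was at 1077, 92.1 and 751 CPM at day 10 and 1138 and 726 CPM at 48 h, so mouse 4 was lowest.

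DCT cells were 1.05%, 1.51% and 1.64% of kept cells at day 10 and 0.511% and 1.05% at 48 h. The mean was 1.40% ± 0.311 at day 10 (SD, n = 3) and 0.780% ± 0.380 at 48 h (SD, n = 2), and the test of cell numbers did not pass (log2 fold change 0.85, SE 0.46, adjusted p = 0.191 by edgeR over the labels). Among DCT, connecting tubule, principal and injured distal cells together, DCT cells were 13.7%, 17.9% and 15.5% at day 10 and 6.74% and 13.6% at 48 h. The difference of 5.53 percentage points had an exact two-sided permutation p of 0.1, the smallest that 3 against 2 mice allow. Of DCT and injured distal cells alone, the DCT label took 27.6%, 41.3% and 38.9% at day 10 and 12.3% and 35.8% at 48 h, which overlapped (exact two-sided permutation p = 0.4). Fewer cells of a type in the kidney and fewer of them captured cannot be told apart from these shares.

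Whether the time effect in DCT cells differed from that in neighbouring labels was tested as an interaction within mice, which share their libraries across labels. The difference is signed, the log2 change in DCT cells minus that in the other label, so a smaller change can be a deeper fall. Against the thick ascending limb 735 of 11456 genes differed (6.42%), 460 with the larger signed change in DCT cells and 275 with the smaller. Without TMM these were 294 and 501 of 795 genes, at a median shift of -0.17. Against the Connecting Tubule label 118 of 9141 genes differed (1.29%), 88 larger and 30 smaller. Against the injured distal cells, a comparison added after values were seen, 81 of 10205 genes differed (0.794%), 47 larger and 34 smaller, and 6 genes were left without mouse 2. The time effect alone called 1325 genes in the thick ascending limb (10.4%), 1 in the Connecting Tubule label (0.0104%) and 22 in the injured distal cells (0.199%).

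The oxidative phosphorylation genes that differed had the larger change in DCT cells in each of the 3 comparisons. The counts below are of subunits that passed the test of the difference, and the medians are over all 80. In each comparison 0 subunits passed with the smaller change. Of all genes, 6.42% differed against the thick ascending limb, 1.29% against the Connecting Tubule label and 0.794% against injured distal cells. Against the thick ascending limb 75 of 80 subunits passed with the larger change in DCT cells, with a median of 1.01. Without TMM these were 62 of 80 and 0.81. Against the Connecting Tubule label 32 of 80 did, with a median of 0.69, and this count was 6 without mouse 2, 11 without mouse 1, 17 without mouse 5 and 19 without mouse 3. Against the injured distal cells 16 of 80 did, with a median of 0.71, and this count was 0 without mouse 2, 1 without mouse 5, 3 without mouse 3, 6 without mouse 1 and 47 without mouse 4. The median change itself was 0.83 in DCT cells, 0.13 in injured distal cells, 0.10 in the Connecting Tubule label and -0.22 in the thick ascending limb. Cycs differed by 2.05 from the thick ascending limb (SE 0.19, adjusted p = 1.59e-06), by 1.35 from the Connecting Tubule label (SE 0.19, adjusted p = 0.000689) and by 1.33 from injured distal cells (SE 0.21, adjusted p = 0.000967, but 0.238 without mouse 2). In injured distal cells Cycs was at 310, 262 and 258 CPM at day 10 and 212 and 231 CPM at 48 h. The mitochondrial genes had a negative median in all 4 labels, at -0.92 in DCT cells, -1.45 in injured distal cells, -0.72 in the Connecting Tubule label and -1.85 in the thick ascending limb. Against the thick ascending limb 10 of these 13 genes also passed with the larger signed change in DCT cells. The median difference of the 13 was 0.94. Of all genes 6.42% differed there. Their median difference was -0.15 against the Connecting Tubule label and 0.45 against injured distal cells, with 0 called in either.

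**Figure D4:**
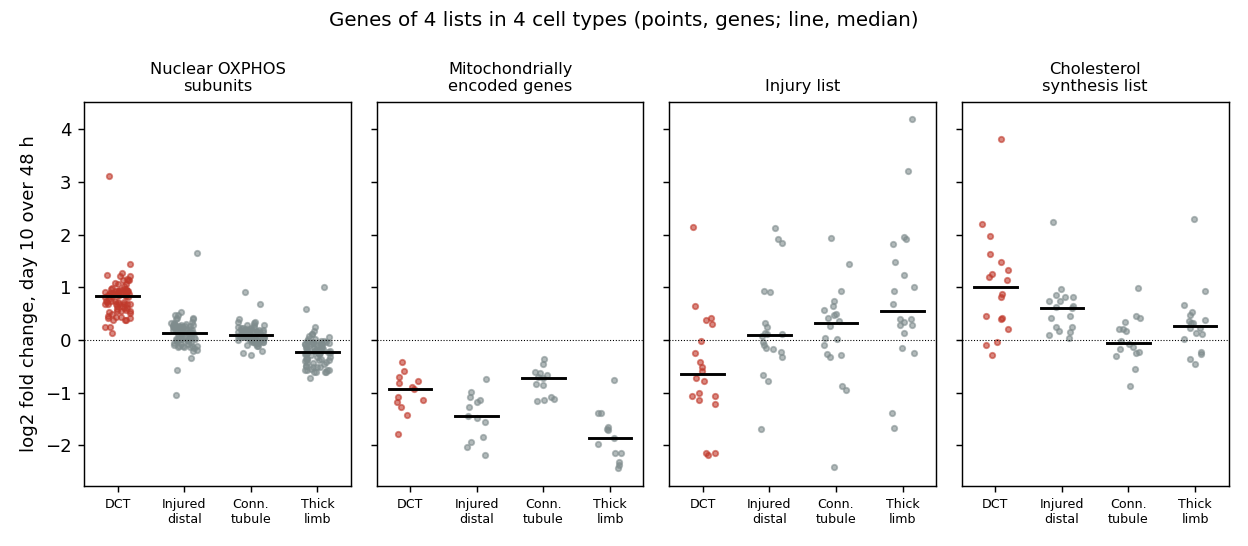
Log2 fold change of day 10 over 48 h of each tested gene of 4 lists in DCT cells and in 3 neighbouring labels, with a line at the median. The nuclear oxidative phosphorylation subunits have a median of 0.83 in DCT cells and 0.13, 0.10 and -0.22 in injured distal cells, the connecting tubule and the thick limb, while the mitochondrially encoded genes are below 0 in all 4.

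The injury genes that differed had the lower signed change in DCT cells. For Spp1, Clu and Sox4 this was a deeper fall than in injured distal cells. Against the thick ascending limb 16 of 34 injury genes passed the test with the lower signed change in DCT cells and 0 with the higher. The median difference of all 34 was -1.25, where 6.42% of all genes differed. The counts were 5 of 25 against the Connecting Tubule label, where 1.29% of all genes differed, and 9 of 32 against injured distal cells, where 0.794% did. They were 1 of 24 against the Connecting Tubule label without mouse 3 and 0 of 34 against injured distal cells without mouse 2. For the 20 genes tested in DCT cells the median change was -0.65 in DCT cells, 0.09 in injured distal cells, 0.31 in the Connecting Tubule label and 0.54 in the thick ascending limb. Spp1 was at 46827, 19108 and 40589.8 CPM in injured distal cells at day 10 and 58405 and 39573 CPM at 48 h, and its change was the lower one in DCT cells (interaction -1.46, SE 0.26, adjusted p = 0.00273). Clu had an interaction of -1.32 (SE 0.23, adjusted p = 0.00223) and Sox4 of -0.88 (SE 0.19, adjusted p = 0.0197) in the same comparison. Without mouse 2 none of these 3 differences from injured distal cells passed (adjusted p of 0.238, 0.233 and 0.163), and that of Sox4 also did not pass without mouse 1, 3 or 5 or that of Spp1 without mouse 3. The injured label is one of the authors' labels for these same libraries, so a split of cells between the labels and a change within them cannot be told apart.

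Of 35 DCT marker genes tested against the injured distal cells, 4 differed (against 0.794% of all genes), Egf, Abca13, Wnk4 and Ckb, each with the larger change in DCT cells, and without mouse 2 the count was 0 of 36. Abca13 was at 257, 205 and 328 CPM in injured distal cells at day 10 and 68.7 and 273 CPM at 48 h (interaction 1.52, SE 0.24, adjusted p = 0.000953). Wnk4, which did not pass within DCT cells alone, was at 91.4, 263 and 159.6 CPM there at day 10 and 81.8 and 247 CPM at 48 h (interaction 1.09, SE 0.25, adjusted p = 0.027). Slc12a3 had an interaction of 0.72 (SE 0.22, adjusted p = 0.124), with 2129, 1663 and 2898 CPM in injured distal cells at day 10 and 3139 and 3477 CPM at 48 h. Against the thick ascending limb 12 of 36 DCT marker genes passed with the larger change in DCT cells. With the smaller change 2 passed, Tmem52b and Trpm6, where 6.42% of all genes differed. Trpm6 was at 18.0, 18.9 and 16.2 CPM in the thick ascending limb at day 10 and 7.41 and 3.30 CPM at 48 h. Against the Connecting Tubule label 6 of 35 passed with the larger change and 1, Calml3, with the smaller, where 1.29% of all genes differed. Sostdc1 had the larger change in DCT cells in all 3 comparisons, by 1.42 against the thick ascending limb, 1.82 against the Connecting Tubule label and 0.96 against injured distal cells (adjusted p = 0.000196, 0.000461 and 0.0313). The difference from injured distal cells passed without mouse 4 but not without any other mouse, with an adjusted p of 0.541 without mouse 2.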

How the data were processed

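Kidneys of 5 mice were measured by single-cell RNA sequencing using the droplet kit that the labels name (10x Genomics, 3′ version 3.1). The deposited matrices hold raw UMI counts per gene and barcode, made with Cell Ranger on mm10; the submitters' processing notes name versions 6.0.2 of Cell Ranger and 4.0.5 of Seurat, whereas the file headers give Cell Ranger 6.0.0. The cell table deposited by the authors gives the label, UMI count and percent of mitochondrial UMIs of each kept cell, and these counts and percents equalled those of the matrices. No doublet or free-RNA removal is recorded there and none was run.

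Counts of DCT cells were summed per mouse (913749, 858228 and 1357599 at day 10, 378854 and 777148 at 48 h) and tested by the quasi-likelihood method of edgeR 4.0.16 (R 4.3.3) after filterByExpr and TMM scaling, at a threshold of 0.05. Standard errors are absolute log2 changes divided by the square root of F. TMM enters the fold changes and not the printed CPM. Interactions of label and time had mouse as a block. On simulated data the DCT test recovered 40% of 2-fold and 95% of 4-fold changes with 5 false calls, over 7823 genes. The interaction test against the thick ascending limb recovered 16% and 90% with 4 false calls, over 8182 genes. The simulation gave every gene the same spread between mice and changed only genes above a set mean UMI count. Recovery in the real data, where the spread differs by gene and many genes have few UMIs, can therefore be lower. DESeq2 1.42.0 and limma 3.58.1 were alternatives, next to other scalings, filters, cell subsets and leaving out each mouse.

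The members, the lists and the tests were chosen with earlier results of these data known. Named genes were the 10 largest rises and 10 largest falls that passed, had separate CPM in the groups, an average log2 CPM of at least 5 and a level of at least 0.2 times that in other cells, up to 3 per direction and list or interaction, and a set of DCT and injury genes. Hsd11b2, Lhx1 and Hmgcs1 fall outside that rule, as do called subunits beyond 3, and were chosen after their values were seen. A limit for a count of 0 is 3 counts. Some genes that the rule takes are not reported here.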

Additional observations from a re-analysis of the deposited data

Results flagged for a closer look

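The genes below were flagged because the test of the difference in time effect between DCT cells and a neighbouring label passed. They are the largest differences, up to 3 per direction, among genes that met the level limits of the naming rule. Gene models, mitochondrial and hemoglobin genes were left out. Larger differences outside these limits passed too. Against the Connecting Tubule label Hbb-bs differed by -7.31. The endothelial markers Kdr, Flt1 and Plvap also passed there, and the median of the 4 such markers tested was 5.29. Each value is the log2 fold change of day 10 over 48 h in DCT cells minus that in the other label, from edgeR's interaction term with its adjusted p.

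Against the thick ascending limb, Anxa3, an annexin, differed by -3.21 (SE 0.25, adjusted p = 3.25e-07), with 44.9, 53.6 and 40.5 CPM in DCT cells at day 10 and 135 and 68.2 CPM at 48 h, and 118, 101 and 85.6 CPM in the thick ascending limb at day 10 and 32.01 and 11.8 CPM at 48 h. Its groups did not overlap in either label and lay in opposite directions. Sdf2l1 differed by 5.32 (SE 0.59, adjusted p = 1.31e-05), with 37.8, 10.1 and 12.7 CPM in the thick ascending limb at day 10 and 85.4 and 74.0 CPM at 48 h. Tfrc, the transferrin receptor, differed by 3.15 (SE 0.40, adjusted p = 4.58e-05) and Cebpd, a transcription factor of the acute phase, by -2.95 (SE 0.31, adjusted p = 9.61e-06). Car15, a carbonic anhydrase, differed by -4.62 (SE 0.62, adjusted p = 8.33e-05), with 16.4, 37.3 and 11.8 CPM in DCT cells at day 10 and 13.2 and 322 CPM at 48 h, so that its level in mouse 2 stood apart, and without mouse 2 it did not pass (-1.34, adjusted p = 0.556). Pla1a, a phospholipase, differed by 8.14 (SE 2.23, adjusted p = 0.0347) and had 0 UMIs in DCT cells at 48 h, so that value depends on the prior count.

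Against the Connecting Tubule label, Abca13 differed by 2.55 (SE 0.35, adjusted p = 0.000572), with 18.2, 6.70 and 19.9 CPM in the connecting tubule at day 10 and 13.7 and 25.6 CPM at 48 h. Atp4a differed by 2.45 (SE 0.33, adjusted p = 0.000461) and Lpl, lipoprotein lipase, by 2.53 (SE 0.47, adjusted p = 0.00624). Lower were Anxa3 by -2.21 (SE 0.30, adjusted p = 0.000461), Dcdc2a by -1.99 (SE 0.33, adjusted p = 0.00242) and the small heat shock protein gene Hspb1 by -1.84 (SE 0.34, adjusted p = 0.00575). Dcdc2a was at 174, 22.1 and 97.2 CPM in DCT cells at day 10 and 230 and 24.5 CPM at 48 h, a spread within groups larger than that between them. Without mouse 1 Dcdc2a did not pass (adjusted p = 0.136), and without mouse 2 Abca13 did not.

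Against the injured distal cells, Egf differed by 3.34 (SE 0.52, adjusted p = 0.000883), with 24.2, 42.7 and 21.1 CPM in injured distal cells at day 10 and 26.3 and 188 CPM at 48 h. The creatine kinase gene Ckb differed by 2.49 (SE 0.33, adjusted p = 0.00016), Angptl4 by -2.35 (SE 0.44, adjusted p = 0.00372) and Hbegf, an EGF receptor ligand, by -2.27 (SE 0.35, adjusted p = 0.000883). Without mouse 2 none of Egf, Ckb, Angptl4 and Hbegf passed (adjusted p of 0.725, 0.209, 0.175 and 0.0839), and Egf and Angptl4 did not pass without mouse 5 either. Car15 differed by -2.82 (SE 0.49, adjusted p = 0.00226), a value that was 0.11 without mouse 2. Ccl20, a chemokine, differed by 7.49 (SE 1.79, adjusted p = 0.0389) with 0 UMIs in DCT cells at 48 h, 97.3% of its mouse 3 UMIs in 1 cell and a value of -0.85 without mouse 1.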

How the results depend on the processing

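No paired analysis was possible because the mice of the 2 times carry different numbers. The 59 called genes of DCT cells were 139 with DESeq2, 157 without TMM, 358 with no filter on low counts, 133 in cells with a Slc12a3 UMI, 90 without cells rich in blood or macrophage UMIs, 27 with thinned cells, 15 in cells under 20% mitochondrial UMIs and 2 with injured distal cells joined. They were 7 without mouse 5, 13 without mouse 3, 21 without mouse 4, 48 without mouse 1 and 58 without mouse 2, and 4 genes (Fdps, Apoe, Sostdc1 and Angptl4) stayed called each time. The difference from the thick ascending limb gave 440 genes with DESeq2 and 353 to 776 without a mouse, that from the Connecting Tubule label 214 with no filter and 63 to 196 without a mouse, and that from injured distal cells 179 with no filter and 6 to 185 without a mouse. None of the genes whose sign turned in DCT cells had passed the threshold. Without TMM these were Fxyd2 (0.10), Sall3 (0.084), Slc12a3 (0.11) and Trpm6 (0.14), and with no filter Slc12a3 (0.0056) and Trpm6 (0.031). With equal cells and UMIs they were Fxyd2 (0.035), Sall3 (0.26), Slc12a3 (0.33) and Trpm6 (0.12), and in cells with a Slc12a3 UMI Fxyd2 (0.036). In cells under 20% mitochondrial UMIs they were Sall3 (0.43), Trpv5 (1.38) and Wnk1 (-0.087), and with thinned cells Kcnj10 (-0.10), Sox9 (-0.019), Trpm6 (0.51) and Wnk1 (-0.078). With injured distal cells joined they were Egf (-0.80), Kcnj10 (-0.027), Sall3 (0.22), Sox9 (-0.027) and Trpv5 (0.26). Without a mouse, ranges that crossed 0 were -0.21 to 0.092 for Fxyd2, -0.36 to 0.14 for Sall3, -0.26 to 0.21 for Slc12a3, -0.35 to 0.17 for Trpm6, -0.068 to 0.72 for Wnk1, -0.28 to 0.58 for Sox9, -0.79 to 0.21 for Lcn2 and -0.033 to 0.62 for Tfap2b. Differences between labels that did so were Ccl20 (-0.85 to 9.20) and Car15 (-3.62 to 0.11) against injured distal cells, and Hbb-bs against them (-8.02 to 0.25) and against the Connecting Tubule label (-8.18 to 0.35). The cause was not tested. Over all settings, 666 gene values kept direction and side of the threshold, 184 no longer passed, 9 newly passed and 37 turned. The share of DCT cells gave a change of 0.41 to 1.45 without a mouse and did not pass. With 25 to 88 cells a mouse, genes at a few CPM rest on few UMIs.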

Other observations

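Several lists that describe other cell programmes had 0 calls by edgeR in DCT cells. DNA replication had 0 of 12 tested, with 0 at an unadjusted p under 0.05 and 0 by DESeq2, and cytosolic ribosomal proteins had 0 of 30, with 0 and 0. Mitochondrial ribosomal proteins had 0 of 78, with 16 at an unadjusted p under 0.05, 2 by DESeq2 and a median change of 0.36, below the 0.83 of the respiratory chain subunits. Cytosolic heat shock proteins had 0 of 15, with 5 unadjusted and 1 by DESeq2, and a median of -0.30. NF-kB targets had 0 of 10, with 3 and 1, and a median of -0.50. Distal nephron transcription factors had 0 of 22, with 6 and 0, and a median of 0.24. Growth factors had 0 of 24, with 4 and 0, and magnesium transport had 0 of 13, with 1 and 0. MHC class II genes had 0 of 5, with 5 unadjusted, a median of 3.27 and summed levels of 251, 93.2 and 144 CPM at day 10 and 26.4 and 10.3 CPM at 48 h. At such 48 h levels these genes pass the filter on low counts through the day 10 mice. The rise was not particular to DCT cells, as the median was 3.47 in injured distal cells, 3.92 in the Connecting Tubule label and 3.75 in the thick ascending limb. Which cells this RNA came from was not tested.

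The endoplasmic reticulum list had 1 called gene of 19, Sdf2l1, which was higher (against 0.391% of all genes), and a median of 0.38 in DCT cells. The same list had a median of -0.97 in the thick ascending limb. Of 20 genes tested for the difference 15 passed with the higher signed change in DCT cells and 1, Ppp1r15a, with the lower. Of all genes 6.42% differed there. The median difference was 1.24. Against the Connecting Tubule label 1 of 20 differed, and against injured distal cells 0 of 20 did by edgeR and 0 by DESeq2, while 5 had an unadjusted p under 0.05. The chaperone Hspa5 was at 682, 246 and 291 CPM in DCT cells at day 10 and 277 and 193 CPM at 48 h (log2 fold change 0.64, adjusted p = 0.522) and differed from the thick ascending limb by 2.58 (SE 0.17, adjusted p = 5.21e-08). Calr, calreticulin, differed by 1.83 (SE 0.18, adjusted p = 2.95e-06). Against the Connecting Tubule label Hspa5 did not pass (0.81, adjusted p = 0.175).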
